A study of Mus musculus with 35 samples.

Results

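The cadherin switch and the factors of the epithelial to mesenchymal transition were followed here through 10 genes in neuroectoderm (NE) cells made from mouse embryonic stem cells (ESCs). They are the adhesion genes Cdh1, Cdh2 and Epcam, the mesenchymal genes Vim and Fn1, and the transcription factor genes Snai1, Snai2, Twist1, Zeb1 and Zeb2. The genes were chosen by name, with earlier results of these data known. All 10 of 10 were found in each of the 3 deposited tables of normalized read counts, which together hold 18930 genes. All 10 also passed the filter on low values, a mean of at least 10 in each table.

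The study asked what the catalytic activity and the other functions of TET3, an enzyme that oxidizes methylated cytosine, do when ESCs become NE. Male V6.5 ESCs were edited with CRISPR/Cas9 to give Tet3m/m cells, which carry substitutions in the iron binding site of the enzyme, and Tet3-/- cells, which lack an exon. All cells, the Tet3+/+ controls included, were grown on feeder cells, pre-plated to remove them, and turned to NE by withdrawal of LIF and addition of retinoic acid (RA). RNA was sequenced in 26 samples of 3 experiments. The day 3 experiment held 3 Tet3+/+, 3 Tet3m/m and 2 Tet3-/- samples, each an independent clone. In the Dnmt1 experiment, cells of each genotype carried a myc-tagged Dnmt1 under a CAG promoter or the empty vector under blasticidin selection, with 2 samples for each of the 6 groups. In the Tet3-CD experiment, cells of each genotype received the HA-tagged catalytic domain of TET3 or its empty vector, with 1 sample for each of the 6 groups. The methods speak in general of biological replicates, but no source used here says of the 2 samples of a group in the Dnmt1 experiment that they came from separate cultures, so their p-values measure only the spread between these samples. The 3 tables were normalized separately, and tests were run only within a table.

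Depth ranged from 31155842 to 50845950 reads in the count tables of the day 3 and Dnmt1 experiments and from 33475041 to 37707719 in the Tet3-CD experiment. Tet3 itself stood at 4576 to 5020 normalized counts in day 3 Tet3+/+ cells, 1945 to 2666 in Tet3m/m and 1796 and 2329 in Tet3-/- cells. With the empty vector of the Dnmt1 experiment it stood at 2957 and 3075 in Tet3+/+, 1125 and 963.7 in Tet3m/m, and 2520 and 2571 in the libraries labelled Tet3-/-. The counts of both experiments also take in the exons outside the deletion. Against Tet3+/+, the log2 difference of Tet3 in Tet3-/- was -1.21 on day 3 and -0.24 with this empty vector. The reason why these values differ was not tested. The Dnmt1 vector raised Dnmt1 by 0.64, 0.90 and 1.06 on the log2 scale in Tet3+/+, Tet3m/m and Tet3-/- cells. All 10 neuroectoderm markers were in each table, with Otx2 and Hes5 at 0 in 1 day 3 sample each. Markers of other cell types were present too, and the empty vector Tet3m/m libraries stood apart for them. Their 10 naive pluripotency markers summed to 103537 to 105591 normalized counts, against 39514 to 39618 in Tet3+/+ and 6138 to 6538 in Tet3-/-, and the 8 parietal endoderm markers to 678436 to 755377, against 311011 to 320278 and 145719 to 147931. The list named naive pluripotency also holds Pou5f1, Nanog and Tdgf1, which are not limited to the naive state, so its sum does not show that state. In these bulk samples, fewer cells of a type and less RNA per cell cannot be told apart.

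Cadherins hold neighbouring cells together through calcium-dependent binding, and their tails are tied to actin by catenins. When a cell sheet loosens or changes identity, E-cadherin (Cdh1) commonly gives way to N-cadherin (Cdh2), a change known as the cadherin switch, which also marks formation of the neural plate and the exit of neural crest cells. The zinc finger proteins Snai1, Snai2, Zeb1 and Zeb2 repress Cdh1 by binding E-boxes, Twist1 is a bHLH factor of the same program, and vimentin and fibronectin are its usual mesenchymal readouts.

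Promoter sequences are shown for Epcam, an epithelial gene, and for Vim and Twist1, genes of the mesenchymal program whose levels differed between genotypes, so that the E-box letters can be compared. Each is the 250 bases before the start of the gene in RefSeq GRCm38.p6, plus strand, at chr17:87635729-87635978 for Epcam, chr2:13574061-13574310 for Vim and chr12:33957421-33957670 for Twist1, and capitals mark CACCTG or its reverse complement CAGGTG.
Epcam: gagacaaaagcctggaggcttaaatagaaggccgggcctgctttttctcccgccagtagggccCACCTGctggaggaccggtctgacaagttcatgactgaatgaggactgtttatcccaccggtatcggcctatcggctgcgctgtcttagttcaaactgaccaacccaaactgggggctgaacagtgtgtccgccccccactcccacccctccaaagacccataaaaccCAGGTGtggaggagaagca
Vim: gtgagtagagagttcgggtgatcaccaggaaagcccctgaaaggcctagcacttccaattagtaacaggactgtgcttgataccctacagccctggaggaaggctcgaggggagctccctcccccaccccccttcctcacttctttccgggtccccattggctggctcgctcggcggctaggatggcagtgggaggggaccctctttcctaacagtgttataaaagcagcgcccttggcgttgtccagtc
Twist1: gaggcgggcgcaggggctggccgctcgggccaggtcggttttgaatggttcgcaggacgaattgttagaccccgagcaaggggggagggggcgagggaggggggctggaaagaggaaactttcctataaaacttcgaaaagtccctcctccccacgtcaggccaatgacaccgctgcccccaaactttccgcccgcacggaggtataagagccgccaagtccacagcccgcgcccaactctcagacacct
The Epcam promoter held the E-box letters at 2 places, the first base 187 and 19 bases before the start. Vim and Twist1 held none in this window, which says nothing of binding elsewhere. Snai1 held 1, beginning 126 bases before the start, and the 4 entries of Zeb2 held none. Cdh1, Cdh2, Fn1, Snai2 and Zeb1 were not in the promoter table used. Among 32851 promoters of the same length, 17.2% held the letters. CpG pairs, the target of DNA methylation, numbered 27 in the Snai1 promoter, 18 in Twist1 and 8 each in Epcam and Vim. The 4 entries of Zeb2 held 14, 6, 6 and 9, and the median over all promoters was 6.

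In day 3 Tet3+/+ NE cells the epithelial cadherin was the most abundant of the 10 mRNAs, and N-cadherin, although present, was far lower. Per kilobase of gene model, the mean normalized count was 6699 for Cdh1, 4953 for Vim, 3020 for Epcam and 2577 for Fn1, and neighbours in this order overlapped between clones. Then came Twist1 at 1168, Cdh2 at 696.4 and Snai1 at 374.4 per kilobase. Zeb1 at 161.9, Snai2 at 126.2 and Zeb2 at 60.35 per kilobase were the lowest, and from Fn1 downward no neighbours in the order overlapped. The length used joins all annotated exons of a gene, 19942 bases for Zeb2, 2021 for Snai2, 8066 for Cdh2 and 4574 for Cdh1. The order and the ratios per kilobase depend on it. By mean normalized count, Snai2 at 255.1 was below Zeb2 at 1204. The order per kilobase was not the same in every group. Fn1 led in the empty vector Tet3m/m cells of the Dnmt1 experiment, at 5544 per kilobase, ahead of Cdh1 at 3066.

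**Figure D1:**
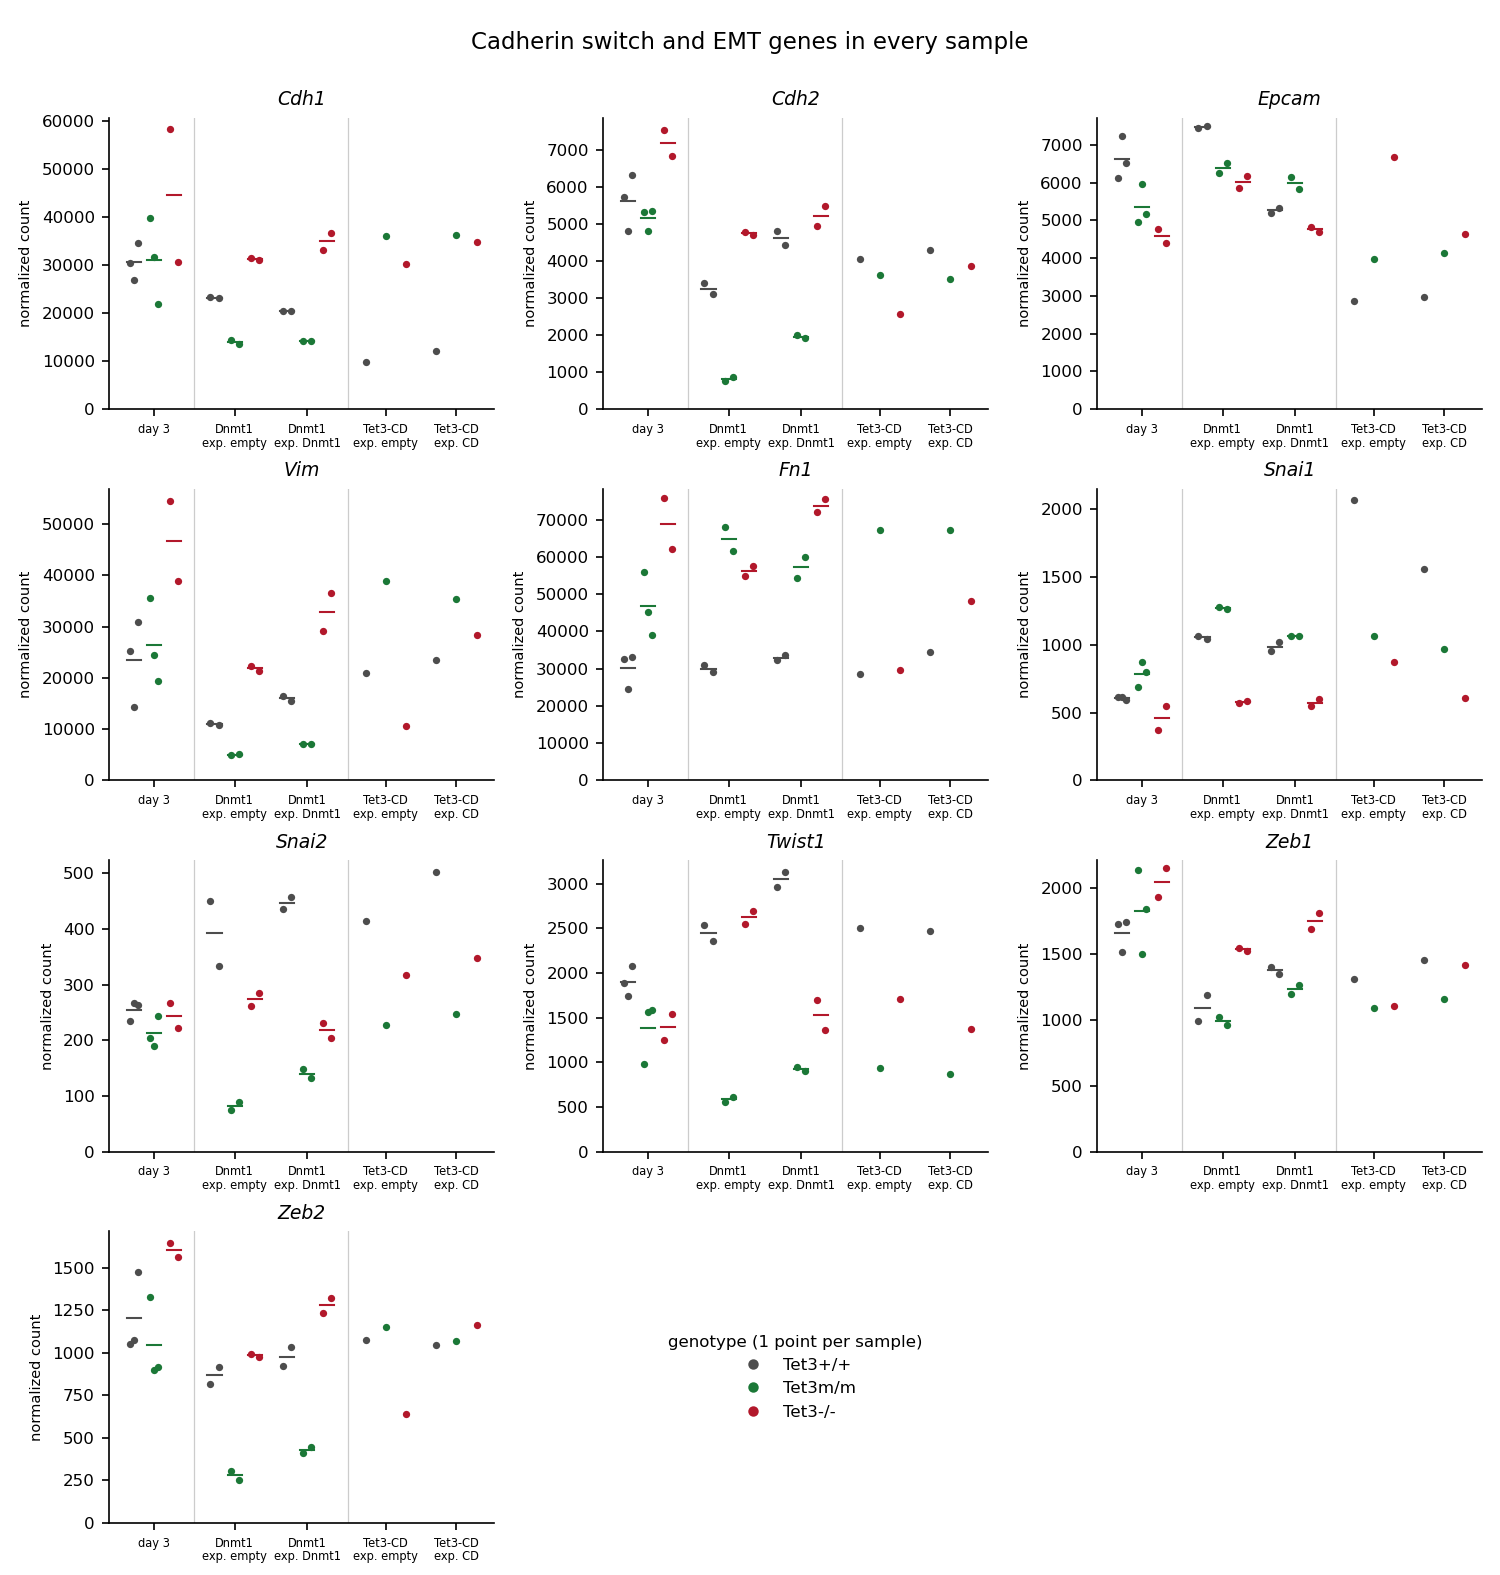
Normalized counts of the 10 genes in each of the 26 samples (y axes, linear from 0, 1 panel per gene), by experiment and vector (x axes), with 1 point per sample, short lines for group means and grey, green and red for Tet3+/+, Tet3m/m and Tet3-/-. In the Dnmt1 experiment Cdh2, Snai2, Twist1 and Zeb2 sit lowest in Tet3m/m cells with either vector, whereas on day 3 the Tet3m/m and Tet3+/+ clones overlap for 6 of the 10 genes.

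The day 3 samples showed these genes at the NE stage in cells with the Tet3m/m substitutions or with loss of the whole protein. Tet3 mRNA was itself lower in Tet3m/m than in Tet3+/+ clones (log2 difference -1.055, adjusted p = 0.00071 in limma's test). It was also lower with the empty vector of the Dnmt1 experiment (-1.53). The authors hold it possible that the mutant protein is reduced too. Loss of catalytic activity and less of the protein therefore cannot be told apart in Tet3m/m cells. In Tet3m/m cells fibronectin rose and no other of the 10 genes passed the test. Both cadherin genes overlapped between Tet3m/m and control clones. Throughout, a change was called at an adjusted p under 0.05 with a fold above 1.5 in limma's test on log2(normalized count + 1), with Benjamini-Hochberg adjustment over all genes tested. Fold changes are on this scale.

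Fn1, which encodes the matrix glycoprotein fibronectin, had 32660, 24517 and 33145 normalized counts in the Tet3+/+ clones and 56032, 45230 and 39036 in the Tet3m/m clones. All 3 Tet3m/m clones were above all controls, and the log2 difference was 0.63 ± 0.16 (SE; adjusted p = 0.0244). The call of Fn1 was lost without Tet3+/+ replicate 2 (0.49, adjusted p = 0.0939), Tet3m/m replicate 1 (0.49, adjusted p = 0.0567) or Tet3m/m replicate 2 (0.65, adjusted p = 0.0683). Of all 17915 genes tested, 10.2% were called in this comparison, 5.06% higher and 5.19% lower, so 1 called gene of 10 is near the background.

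Cdh1 was at 30414, 26833 and 34677 in Tet3+/+ and at 39754, 31747 and 21930 in Tet3m/m clones. The groups overlapped, with a log2 difference of -0.011 ± 0.25 (adjusted p = 0.985, 95% interval -0.56 to 0.53). Genes of chromosome 8, where Cdh1 lies, had a median log2 difference of -0.34 in this comparison, and after its subtraction the Cdh1 value was 0.33. The part of this shift in the Cdh1 value was not tested. Cdh2 was at 5728, 4806 and 6317 against 5336, 4801 and 5354, a log2 difference of -0.11 ± 0.11 (adjusted p = 0.537) between overlapping groups. Per kilobase, Cdh1 exceeded Cdh2 by 9.36- to 9.85-fold in Tet3+/+ clones and by 7.22- to 13.1-fold in Tet3m/m clones.

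Of the 10 genes, 4 did not overlap between the 2 groups, against 36.7% of all genes. These were Fn1, Epcam, Snai1 and Twist1. Epcam, an epithelial adhesion molecule, was at 6127, 7248 and 6513 in Tet3+/+ and 4949, 5972 and 5181 in Tet3m/m clones (log2 difference -0.31 ± 0.10, adjusted p = 0.0709). Snai1 was at 612.9, 614.6 and 593 against 687.3, 874.3 and 797.3 (0.37 ± 0.16, adjusted p = 0.165). Twist1 was at 1893, 1737 and 2074 against 985.3, 1568 and 1589 (-0.49 ± 0.18, adjusted p = 0.0949). None of these 3 passed the test, although the Tet3m/m clones lay on 1 side for each. Vim, Snai2, Zeb1 and Zeb2 overlapped, with log2 differences between -0.27 and 0.20. The median log2 difference was -0.06 over the 10 genes and 0.00 over all genes.

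Among the related genes, some of the epithelial junction fell in Tet3m/m cells. Of 22 such genes, 0 rose and 5 fell. The median of the 22 was -0.28. Of 17 other cadherin and catenin genes, Cdh5, the endothelial cadherin (-3.68, adjusted p = 5.96e-05), and Cdh3, P-cadherin (-0.77, adjusted p = 0.00548), fell and 0 rose. Itga5, a subunit of the main fibronectin receptor, rose by 0.81 (adjusted p = 0.00424), the only one of 8 fibronectin receptor genes to pass. Of 22 mesenchymal matrix genes tested, 5 rose and 0 fell, with Cd44, a hyaluronan receptor, at 1.29 (adjusted p = 0.0127). The summed fibroblast or feeder markers, of which 6 are also among the mesenchymal genes, ranged from 14480 to 24716 in Tet3m/m and from 19498 to 30774 in Tet3+/+ clones. Xist, an RNA of the inactive X chromosome of female cells, was at 524.4, 289.2 and 103.9 in the Tet3m/m clones of this male line and at 51.1 to 59.8 in the Tet3+/+ clones, and its relation to the values above was not tested. Other markers also moved in the Tet3m/m clones. Of 10 neuroectoderm markers 0 rose and 6 fell, and of 9 neural crest markers 2 rose and 5 fell, with a sum of 7210 to 8199 against 8784 to 10418. Of 11 visceral endoderm markers 4 rose and 0 fell (10923 to 14809 against 7916 to 8711), and of 6 mesoderm markers 1 rose and 0 fell (833 to 942 against 589 to 687). The part of these markers in the values of the 10 genes was not tested.

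In Tet3-/- NE cells fibronectin was again the only gene of the 10 that passed the test. Vimentin, which builds the intermediate filaments of mesenchymal and neural precursor cells, also lay above all controls but did not pass. Fn1 stood at 75720 and 62187 in the Tet3-/- clones, above the 24517 to 33145 of Tet3+/+, a log2 difference of 1.20 ± 0.18 (adjusted p = 0.0457). This call was lost on leaving out any 1 of Tet3+/+ replicates 1, 2 and 3, Tet3m/m replicate 2, and Tet3-/- replicates 1 and 2 (log2 difference of Fn1 1.06 to 1.34 over all samples left out in turn). Of all genes, 0.642% were called in this comparison, 0.458% higher and 0.184% lower.

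Vim was at 54399 and 38891 in Tet3-/- against 25214, 14371 and 30885 in Tet3+/+ clones, and the groups did not overlap (1.04 ± 0.31, adjusted p = 0.106). Cdh2 was at 7538 and 6847, above the 4806 to 6317 of the controls (0.36 ± 0.12, adjusted p = 0.138). Epcam was at 4769 and 4404, below the 6127 to 7248 of the controls (-0.53 ± 0.11, adjusted p = 0.0534). Cdh1 did not follow a simple pattern, since 1 Tet3-/- clone stood at 58375 and the other at 30778, within the control range (0.48 ± 0.28, adjusted p = 0.356). Genes of chromosome 8, where Cdh1 lies, also differed between these clones. Their median log2 ratio to Tet3+/+ was 0.17 in the clone at 58375 and -0.31 in the clone at 30778. The part of this shift in the Cdh1 values was not tested. In all, 8 of the 10 genes did not overlap between the groups, against 41.2% of all genes, with Fn1, Vim, Cdh2, Zeb1 and Zeb2 on the higher side and Epcam, Snai1 and Twist1 on the lower. Snai1 stood at 369 and 545.4 (-0.43 ± 0.18, adjusted p = 0.212) and Twist1 at 1253 and 1539 (-0.45 ± 0.20, adjusted p = 0.238). The sum of the fibroblast or feeder markers was higher alongside, at 45837 to 50568 in Tet3-/- against 19498 to 30774 in Tet3+/+ clones, although 0 of the 10 markers passed the test. Col1a1 weighed heavily in this sum, at 21860 and 27189 against 7293 to 13817. Col1a2, at 5326 and 6422 against 4003 to 5906, Dcn, at 579 and 271 against 345 to 412.8, and Lum overlapped the controls. The part of these markers in the Fn1 and Vim values was not tested.

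Of the listed related genes, 4 passed in this comparison. Itga5 rose by 0.86 (adjusted p = 0.0489), Skil, a modulator of Smad signalling, by 0.67 (adjusted p = 0.0471), the EMT transcription factor Ets1 by 1.20 (adjusted p = 0.0464), and Nes, which encodes the neural filament protein nestin, by 1.14 (adjusted p = 0.0493). Other neuroectoderm markers did not all rise with Nes. Sox1 was at 955.5 and 252.8 against 1063 to 3013 in Tet3+/+ clones, and Pax6 at 1426 and 1032 against 1484 to 2063. The neuroectoderm marker sums overlapped, at 24437 to 28495 in Tet3-/- against 19442 to 26232. None of 22 epithelial junction, 22 mesenchymal matrix or 17 cadherin and catenin genes was called, with medians of 0.15, 0.74 and 0.31. The limma fit made 115 calls over all genes here, whereas DESeq2 on the recovered reads made 917.

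Set against each other, the Tet3 mutants differed in Snai1, a repressor of Cdh1. Snai1 was at 369 and 545.4 in Tet3-/- and 687.3, 874.3 and 797.3 in Tet3m/m clones, with no overlap, and the log2 difference was -0.80 ± 0.18 (adjusted p = 0.0176). It was lost without Tet3m/m replicate 2 (-0.72, adjusted p = 0.0672) or Tet3-/- replicate 1 (-0.52, adjusted p = 0.116), and when only these groups were fitted (adjusted p = 0.0601). Without Tet3m/m replicate 1, Vim (1.08), Zeb2 (0.82) and Fn1 (0.71) were called too. Cdh2 was higher in Tet3-/- clones by 0.48 ± 0.12 (adjusted p = 0.0297) but under the fold threshold. Of the 10 genes, 1 was called, against 9.73% of all genes (5.41% higher and 4.33% lower), and 6 did not overlap, against 41%. Related genes called higher in Tet3-/- than in Tet3m/m cells were 6 of 17 cadherins and catenins, with Cdh5 (2.93, adjusted p = 0.000396), 4 of 22 epithelial junction genes, and 8 of 22 mesenchymal matrix genes, with Col3a1 (2.12, adjusted p = 0.00369). Of these lists only Nt5e, a mesenchymal surface enzyme, was called lower. Alongside Snai1, 9 of 11 visceral endoderm markers were called lower in Tet3-/- than in Tet3m/m clones and 0 higher, with sums of 5832 to 7043 against 10923 to 14809, and their part in the Snai1 value was not tested.

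**Figure D2:**
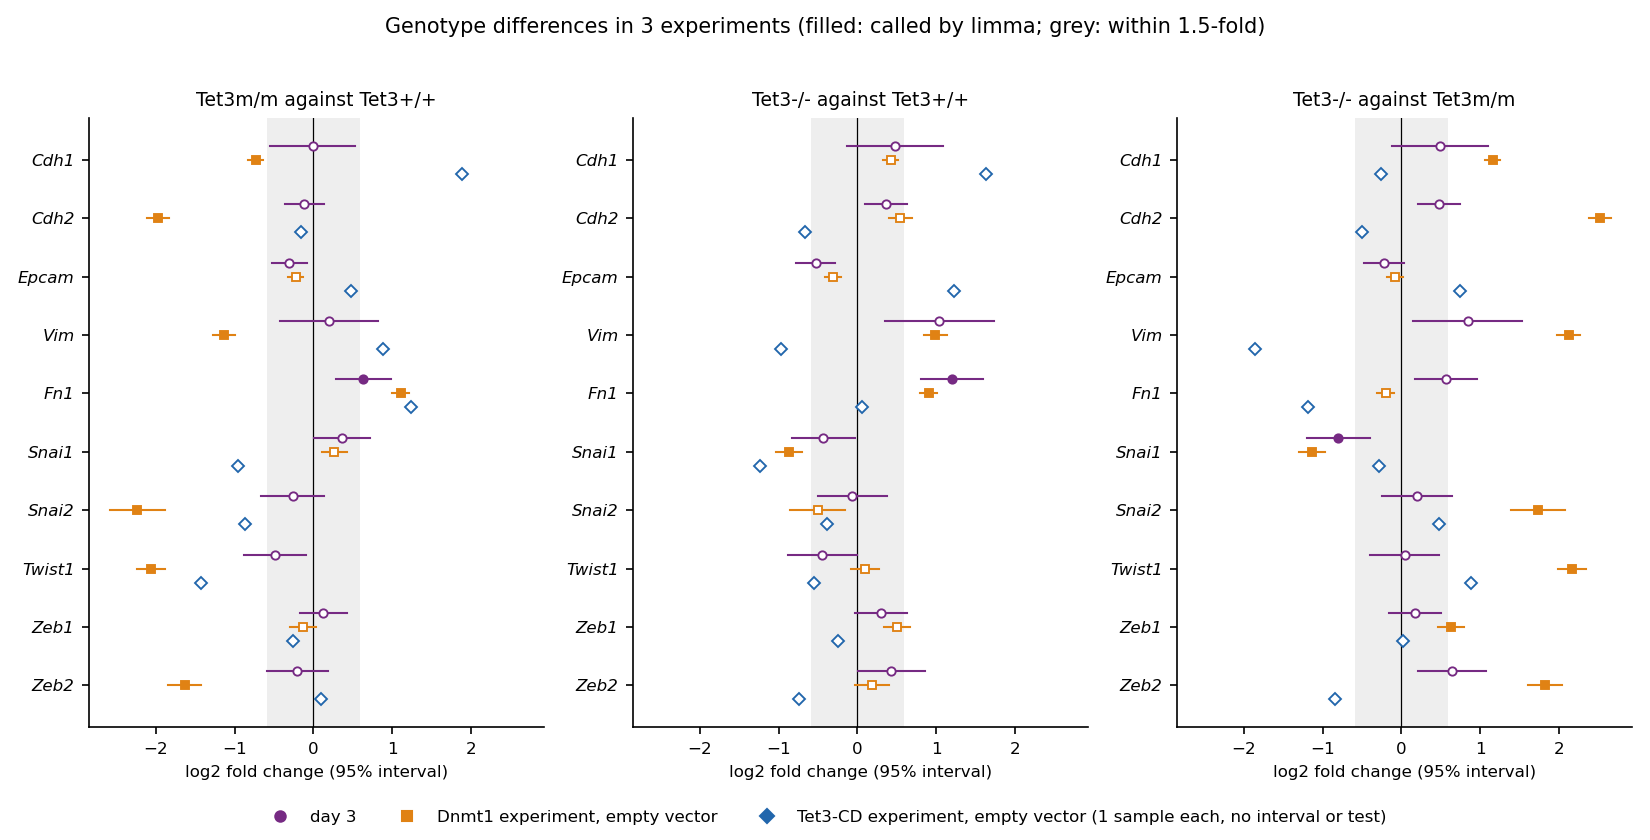
Log2 differences between genotypes (x axis) for each of the 10 genes (y axis), with 95% intervals for the day 3 and Dnmt1 experiments and a ratio of single samples with no interval for the Tet3-CD experiment (open diamonds). Filled circles and squares were called by limma and the grey band is within 1.5-fold. Cdh2, Snai2, Twist1 and Zeb2 lie between -2.24 and -1.64 in empty vector Tet3m/m against Tet3+/+ cells of the Dnmt1 experiment and between -0.49 and -0.11 on day 3, and Fn1 is above 0 in both.

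The empty vector samples of the Dnmt1 experiment gave a second look at genotype, in cells kept under blasticidin selection. In Tet3m/m cells the N-cadherin gene, vimentin and 3 of the 5 EMT transcription factor genes were far below Tet3+/+, Cdh1 was also lower, and Fn1 was the 1 gene called higher. Of the 10 genes, 1 rose and 6 fell, against 10.3% and 10.9% of 18055 genes tested, 21.2% in all.

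Cdh2 was at 3406 and 3107 in Tet3+/+ and 774.1 and 881.7 in Tet3m/m samples, a log2 difference of -1.98 ± 0.07 (adjusted p = 1.35e-15). Both Tet3m/m samples lay far below both controls, a 3.93-fold difference. Cdh1 was at 23324 and 23225 against 14503 and 13547 (-0.73 ± 0.05, adjusted p = 2.04e-11), also without overlap. Chromosome 8 as a whole had a median log2 difference of -0.45 here, and with it subtracted Cdh1 was at -0.29, under the fold threshold. Whether the Cdh1 value belongs to the gene or to the chromosome was not tested. Epcam, at 7439 and 7494 against 6248 and 6522, was lower by less than the fold threshold (-0.23 ± 0.05, adjusted p = 0.000481).

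Vim was at 11262 and 10784 in Tet3+/+ and 4892 and 5169 in Tet3m/m samples (-1.13 ± 0.07, adjusted p = 9.87e-12). Fn1 went the other way, at 31042 and 28994 against 67946 and 61623 (1.11 ± 0.05, adjusted p = 1.93e-13). For both genes the samples of a group lay close together and the groups were well apart.

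Twist1 stood at 2537 and 2356 in Tet3+/+ and at 557.5 and 613.4 in Tet3m/m samples (-2.06 ± 0.09, adjusted p = 2.02e-14). Snai2, which encodes Slug, a marker of neural crest, stood at 450.5 and 334 against 74.94 and 88.56 (-2.24 ± 0.17, adjusted p = 3.45e-10). Zeb2 stood at 819.9 and 916.1 against 306.2 and 252.7 (-1.64 ± 0.10, adjusted p = 2.16e-11). These 3 factor genes fell by 3.1- to 4.7-fold with no overlap, whereas Zeb1 overlapped between the groups (992.8 and 1187 against 1021 and 962.4, adjusted p = 0.199). Snai1 was slightly higher in Tet3m/m samples, at 1276 and 1267 against 1067 and 1046 (0.27 ± 0.08, adjusted p = 0.00821, under the fold threshold). In total 9 of 10 genes did not overlap, against 72.3% of all genes. The median log2 difference was -0.93 over the 10 genes.

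Related genes of both kinds, epithelial and mesenchymal, were lower in these Tet3m/m samples. Of 22 epithelial junction genes, 1 rose (Ocln, 0.61, adjusted p = 2.51e-05) and 12 fell, among them Krt19, a keratin of simple epithelia (-2.02, adjusted p = 3.71e-16). Of 22 mesenchymal matrix genes, 3 rose and 14 fell, with the collagen genes Col3a1 (-5.11, adjusted p = 5.97e-18) and Col1a2 (-2.70, adjusted p = 8.72e-20) among the latter. Of 14 other EMT transcription factor genes, 1 rose and 8 fell. Twist2 was among those that fell, but it was at 15.54 in 1 Tet3m/m sample and at 0 in the other, so no fold is given. Of 10 epithelial regulators, 3 rose and 3 fell. Nes (-2.24, adjusted p = 3.96e-17) and Tgfb3, a TGF-beta ligand (-2.39, adjusted p = 1.48e-13), fell as well. Over the lists the median log2 differences were -0.79 for junction genes, -1.43 for matrix genes and -0.69 for the other factors.

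Marker sums moved with genotype in the same samples. The fibroblast or feeder markers summed to 12418 to 12847 in Tet3m/m, 21698 to 23220 in Tet3+/+ and 39325 to 39743 in Tet3-/- samples, and the 12 visceral endoderm markers to 80582 to 89768, 21857 to 23869 and 8189 to 8714. The 9 neural crest markers summed to 2753 to 2861, 6874 to 7005 and 9524 to 9575. For the 10 neuroectoderm markers the sums were 19267 to 19735, 15937 to 16714 and 18083 to 18398, so this sum was not lower in Tet3m/m. Single markers of this list were lower there, Sox1 at 881 and 928.6 against 2254 and 2592 in Tet3+/+. Pax6 was at 231.2 and 308.7 against 1041 and 994.9. The pluripotency and parietal endoderm sums given above were highest in Tet3m/m as well, and 9 of 10 naive pluripotency markers and 6 of 8 parietal endoderm markers were called higher than in Tet3+/+. Both samples of the Tet3m/m group shared these levels, so no value without them can be given. The part of these cell type markers in the values of the 10 genes was not tested.

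**Figure D3:**
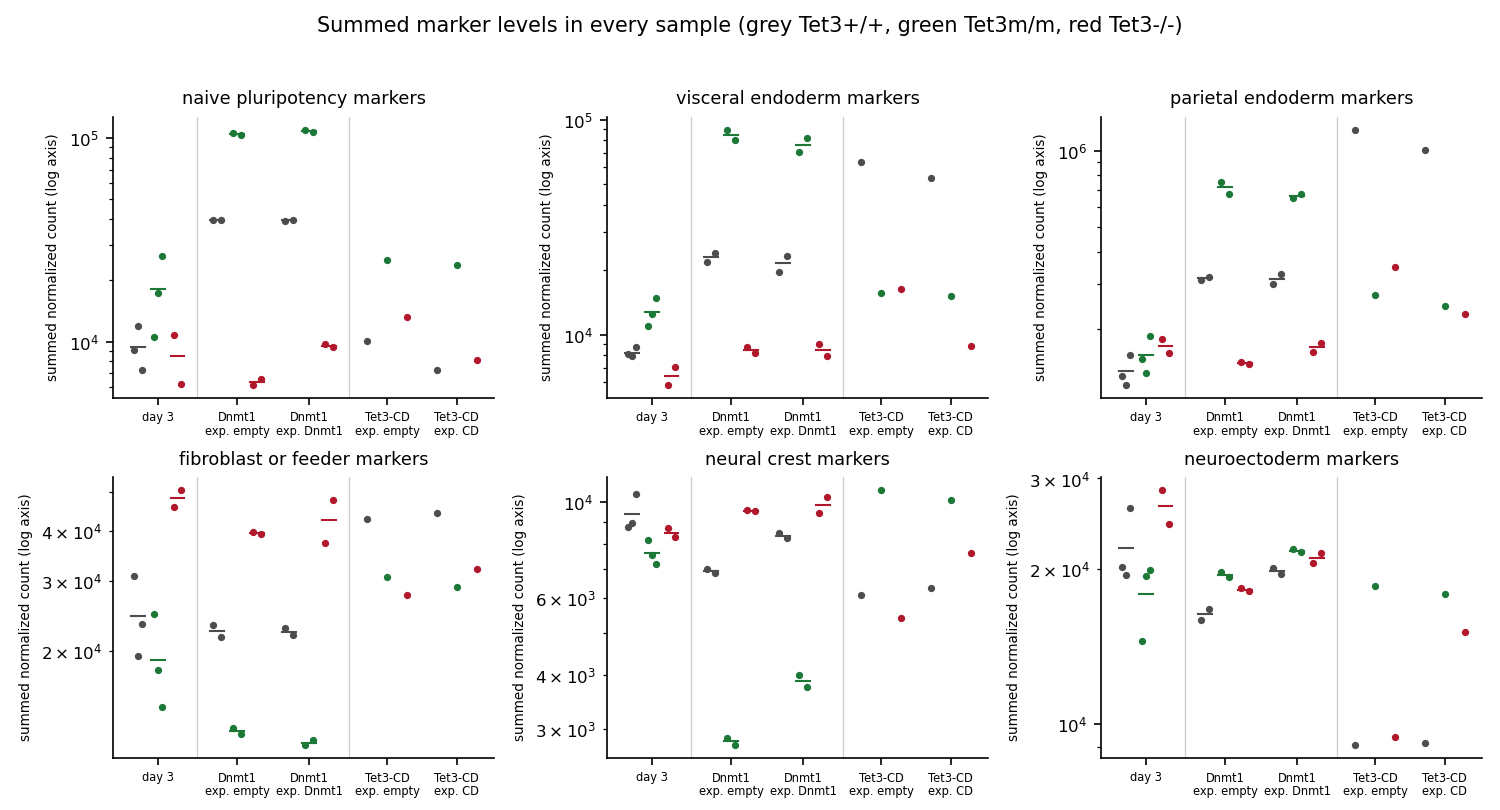
Summed normalized counts of cell type marker lists (y axes, log scale, 1 panel per list) in each of the 26 samples, by experiment and vector (x axes), with 1 point per sample, short lines for group means and grey, green and red for Tet3+/+, Tet3m/m and Tet3-/-. Tet3m/m samples of the Dnmt1 experiment have the highest naive pluripotency sums, 103537 to 110105 over both vectors, and the Tet3-CD experiment's empty vector Tet3+/+ sample has a parietal endoderm sum of 1207062.

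In Tet3-/- cells with the empty vector, vimentin and fibronectin rose and Snai1 fell, and both cadherins were higher by less than 1.5-fold. Vim was at 22383 and 21414 against 11262 and 10784 in Tet3+/+ (0.99 ± 0.07, adjusted p = 1.11e-10), and Fn1 at 54908 and 57605 against 31042 and 28994 (0.91 ± 0.05, adjusted p = 8.05e-12). Snai1 was at 570 and 586.1 against 1067 and 1046 (-0.87 ± 0.08, adjusted p = 8.11e-09). All 10 genes lay apart between the groups, against 77.1% of all genes, but only these 3 were called, 2 higher and 1 lower, against 11% and 13.9% of all genes, 24.9% in all.

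Cdh1 was at 31511 and 31005 (0.43 ± 0.05, adjusted p = 1.05e-07), and Cdh2 at 4777 and 4715 (0.54 ± 0.07, adjusted p = 1.03e-06), so both cadherins were above Tet3+/+ together. Subtraction of the chromosome 8 median, -0.38 in this comparison, put Cdh1 at 0.80, past the fold threshold. Zeb1 (0.50 ± 0.08, adjusted p = 2.2e-05) was also under that threshold, as were Epcam (-0.31 ± 0.05, adjusted p = 1.16e-05) and Snai2 (-0.50 ± 0.17, adjusted p = 0.015). Without 1 of the Tet3+/+ samples, Snai2 (-0.72) and Zeb1 (0.63) passed it, and without the other Cdh2 did (0.61). Twist1 was at 2551 and 2696, close to the 2537 and 2356 of Tet3+/+ (0.10, adjusted p = 0.34, interval -0.08 to 0.28). Related genes that rose were 9 of 22 epithelial junction genes, such as Krt19 (1.43, adjusted p = 1.98e-13), and 10 of 22 mesenchymal matrix genes, such as Acta2, smooth muscle actin (2.44, adjusted p = 6.33e-14), while 0 and 2 fell. Prrx1, a mesenchymal homeobox factor, rose by 2.87 (adjusted p = 8.29e-10).

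Between the mutants, 8 of the 10 genes were called, 7 higher and 1 lower in Tet3-/-, against 18.9% and 20.6% of all genes, 39.6% in all. Cdh2 differed most, at 4777 and 4715 in Tet3-/- and 774.1 and 881.7 in Tet3m/m samples (2.52, adjusted p = 5.1e-18), a 5.74-fold difference. Twist1 (2.16, adjusted p = 2.76e-15), Vim (2.12, adjusted p = 6.69e-17), Zeb2 (1.82, adjusted p = 1.17e-12) and Snai2 (1.73, adjusted p = 8.4e-09) followed. Cdh1 was higher by 1.16 (adjusted p = 2.77e-15) and Zeb1 by 0.63 (adjusted p = 5.68e-07), and Snai1 was lower (-1.14, adjusted p = 3.94e-11). Fn1, high in both mutants, differed by -0.20 (adjusted p = 0.002) and Epcam by -0.08 (adjusted p = 0.124), both under the fold threshold. All 10 lay apart between the groups, against 82.1% of all genes. The 3 genotype comparisons of an experiment share samples and are not independent of each other.

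The Dnmt1 vector addressed whether more of the maintenance methyltransferase changes expression in each genotype. In Tet3+/+ cells it changed none of the 10 genes by more than 1.5-fold, in Tet3m/m cells it raised Cdh2 and 3 transcription factor genes, and in Tet3-/- cells it lowered Twist1.

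In Tet3+/+ cells 0 of 10 genes were called by limma, edgeR or DESeq2, against 1.17% of all genes in limma's test (0.421% higher and 0.753% lower), while 7 of the 10, and 3592 of all 18055 genes, had an unadjusted p under 0.05. Cdh2 was at 3406 and 3107 with the empty vector and 4816 and 4425 with Dnmt1 (0.51 ± 0.07, adjusted p = 0.000177), and Vim at 11262 and 10784 against 16499 and 15500 (0.54 ± 0.07, adjusted p = 7.65e-05). Both were higher with Dnmt1 in every sample. Epcam was at 7439 and 7494 against 5208 and 5337, lower in every sample (-0.50 ± 0.05, adjusted p = 2.1e-06). Cdh1 (-0.19, adjusted p = 0.0161), Twist1 (0.32, adjusted p = 0.0334) and Zeb1 (0.34, adjusted p = 0.0141) had smaller differences. In all, 9 of 10 did not overlap, against 52.7% of all genes. Of the listed related genes, Cdh11, a mesenchymal cadherin (0.76, adjusted p = 0.000663), and Prrx1 (0.86, adjusted p = 0.0274) rose and Snai3, a relative of Snai1, fell (-0.74, adjusted p = 0.0233).

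In Tet3m/m cells 4 of 10 genes rose and 0 fell, against 1.78% and 0.681% of all genes, 2.46% in all. Cdh2 went from 774.1 and 881.7 with the empty vector to 1999 and 1921 with Dnmt1, a 2.37-fold rise (1.25 ± 0.07, adjusted p = 1.51e-10). It remained below the 3107 and 3406 of empty vector Tet3+/+ cells. Twist1 went from 557.5 and 613.4 to 949.3 and 902.7 (0.66 ± 0.09, adjusted p = 1.96e-05).

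Snai2 went from 74.94 and 88.56 to 148.4 and 132.5 (0.78 ± 0.17, adjusted p = 0.00391), a call lost without empty vector replicate 1 or Dnmt1 replicate 1 of Tet3m/m. Zeb2 went from 306.2 and 252.7 to 408.5 and 447.9 (0.62 ± 0.10, adjusted p = 0.000368), a call lost without replicate 2 of either Tet3m/m group. In each of these 4 genes both Dnmt1 samples lay above both empty vector samples and below both empty vector Tet3+/+ samples. Vim, at 4892 and 5169 against 7091 and 7095, was higher by less than 1.5-fold (0.50, adjusted p = 3.92e-05). Cdh1, at 14503 and 13547 against 14194 and 14185, overlapped (0.018, 95% interval -0.08 to 0.11). In all, 9 of 10 genes did not overlap, against 53.5% of all genes, and the median log2 difference was 0.40.

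Among related genes in Tet3m/m cells, Dnmt1 raised 8 of 22 mesenchymal matrix genes and lowered 0, with Col3a1 at 1.68 (adjusted p = 1.29e-08) and Postn, periostin, at 1.53 (adjusted p = 0.004). Cdh11 (1.48, adjusted p = 2.54e-08) and Cdh6 rose among 17 cadherins and catenins, and Nes rose by 0.85 (adjusted p = 1.05e-08). Of 14 other EMT factors, 5 rose and 1 fell, with Prrx1 at 1.51 (adjusted p = 9.98e-05), whereas 0 of 22 epithelial junction genes rose and 1 fell. The fibroblast or feeder marker sum was 12418 to 12847 with the empty vector and 11657 to 11985 with Dnmt1, and the naive pluripotency sum was 103537 to 105591 against 106928 to 110105. By gene, however, 5 of the 10 fibroblast or feeder markers rose with Dnmt1 and 0 fell, with a median log2 difference of 0.65. They were Twist2, Col3a1, Postn, Col1a2 and Dcn, the proteoglycan decorin, which went from 46.6 and 46.9 to 203.8 and 183.7, against 505.8 and 441.8 in empty vector Tet3+/+ cells. Of 10 naive pluripotency markers 1 rose and 0 fell, and of 9 neural crest markers 4 rose and 0 fell, with a sum of 2753 to 2861 without Dnmt1 and 3750 to 3991 with it. These markers moved with Cdh2, Twist1, Snai2 and Zeb2, and their part in those values was not tested.

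In Tet3-/- cells Twist1 went from 2551 and 2696 to 1697 and 1357 with Dnmt1, with no overlap (-0.79 ± 0.09, adjusted p = 3.45e-06). It was the 1 gene of 10 called, against 3.53% of all genes (2.51% higher and 1.02% lower). Vim was at 22383 and 21414 against 29133 and 36490 (0.57, adjusted p = 8.89e-06), Fn1 at 54908 and 57605 against 71966 and 75498 (0.39, adjusted p = 3.81e-05), and Epcam at 5859 and 6182 against 4817 and 4704 (-0.34, adjusted p = 5.95e-05). These 3 lay apart between vectors but under the fold threshold, and Vim passed it with edgeR (0.59) or without replicate 1 of either Tet3-/- group (0.61 and 0.74). In all, 9 of 10 did not overlap, against 52% of all genes. Acta2 rose by 0.99 (adjusted p = 2.52e-06) and Col1a2 fell by 0.92 on the log2 scale (adjusted p = 4.15e-10). Of the markers, 7 of 10 for naive pluripotency rose with Dnmt1 and 0 fell, their sum going from 6138 to 6538 with the empty vector to 9455 to 9692. Of 10 fibroblast or feeder markers, Col1a2 and Dcn fell (Dcn -0.70, adjusted p = 0.00291) and 0 rose. The part of these markers in the Twist1 value was not tested.

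**Figure D4:**
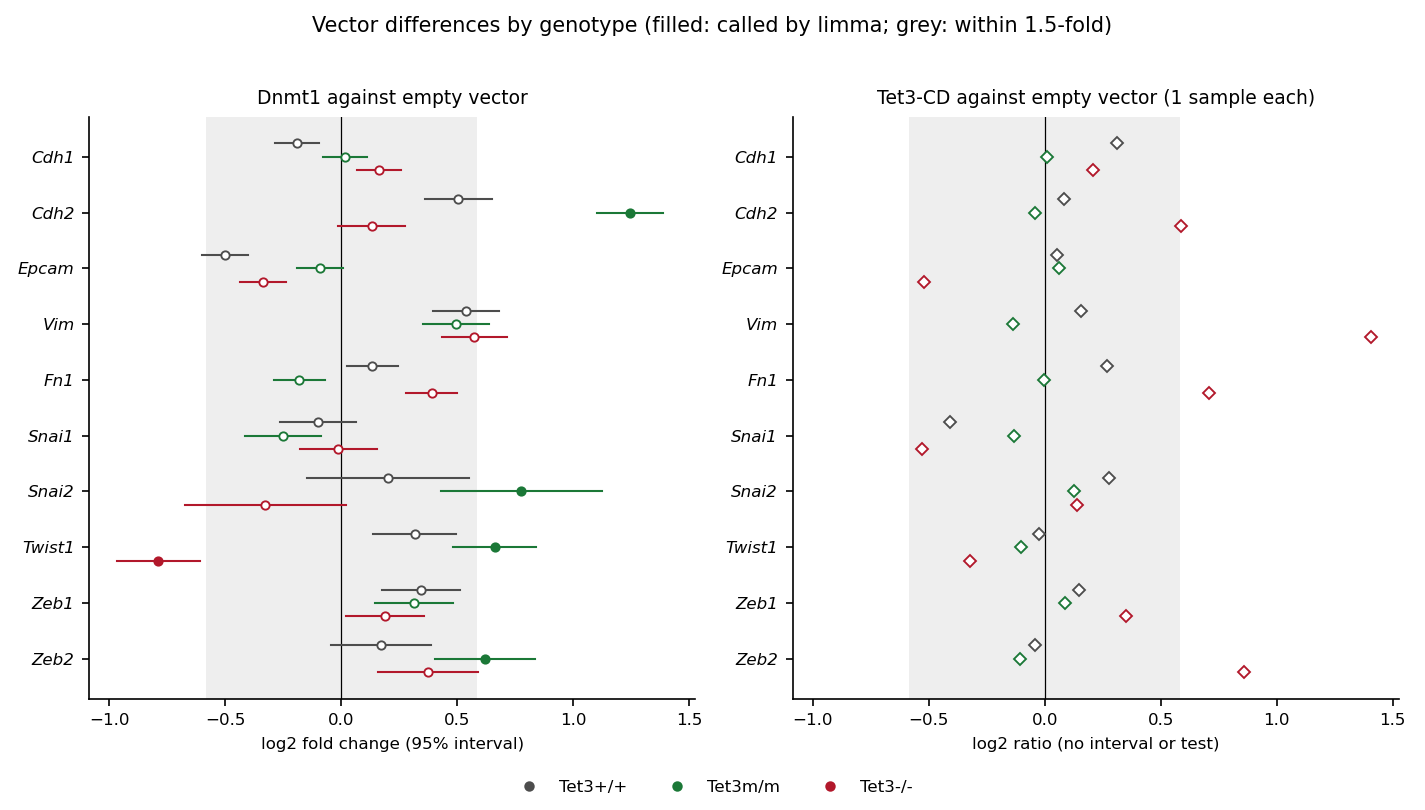
Log2 differences between a vector and its empty vector (x axis) for each of the 10 genes (y axis) in each genotype, with 95% intervals in the Dnmt1 experiment (filled where called by limma) and single-sample ratios with no interval in the Tet3-CD experiment, and a grey band within 1.5-fold. Cdh2 with Dnmt1 lies at 1.25 in Tet3m/m and 0.51 in Tet3+/+ cells, and Twist1 lies above 0 in these genotypes and at -0.79 in Tet3-/- cells.

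Interaction terms tested whether the response to the Dnmt1 vector differed between genotypes. The vector raised Dnmt1 itself unequally, by 0.64, 0.90 and 1.06 in Tet3+/+, Tet3m/m and Tet3-/- cells. The term for Dnmt1 was 0.42 ± 0.09 in Tet3-/- against Tet3+/+ cells (adjusted p = 0.00502, under the fold threshold). A different response to an equal rise of Dnmt1 therefore cannot be read from these terms. For Cdh2 the response was larger in Tet3m/m than in Tet3+/+ cells by 0.74 ± 0.10 (adjusted p = 0.000186) and smaller in Tet3-/- than in Tet3m/m cells (-1.11 ± 0.10, adjusted p = 1.1e-07). For Twist1 the response in Tet3-/- cells was below that in Tet3+/+ (-1.11 ± 0.12, adjusted p = 4.74e-06) and Tet3m/m cells (-1.45 ± 0.12, adjusted p = 5.55e-08). Snai2 also responded less in Tet3-/- than in Tet3m/m cells (-1.10 ± 0.24, adjusted p = 0.00304). No other term was called among the 10 genes. For Tet3m/m against Tet3+/+ this is 1 of 10, higher, where 0.604% of all genes were called (0.521% higher and 0.0831% lower). For Tet3-/- against Tet3+/+ it is 1 of 10, lower, where 3.99% were called (2.66% higher and 1.33% lower), and for Tet3-/- against Tet3m/m 3 of 10, all lower, where 5.38% were called (2.89% higher and 2.5% lower). Cdh11 was called in all 3 terms, at 0.72 (adjusted p = 0.0324), -0.92 (adjusted p = 0.00131) and -1.64 (adjusted p = 9.09e-07), whereas Cdh2 was not called in the middle one (-0.37, adjusted p = 0.0178).

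The balance of the cadherins, taken as Cdh2 over Cdh1 per kilobase on the log2 scale, stayed below 0 in all 26 samples. It was -3.59 and -3.72 in empty vector Tet3+/+ samples, -5.05 and -4.76 in Tet3m/m and -3.54 in both Tet3-/- samples. With Dnmt1 it was -2.90 and -3.02 in Tet3+/+, -3.65 and -3.70 in Tet3m/m and -3.57 in both Tet3-/- samples. The Tet3m/m samples with Dnmt1 thus lay beside the empty vector Tet3+/+ samples in this ratio but below the Tet3+/+ samples with Dnmt1. Both cadherins were lower than in empty vector Tet3+/+, Cdh2 at 1999 and 1921 against 3406 and 3107. Cdh1 was at 14194 and 14185 against 23324 and 23225. Genes of chromosome 8, where Cdh1 lies, had median log2 ratios of -0.43 and -0.45 to empty vector Tet3+/+ in these Tet3m/m samples. The part of this shift in the cadherin ratio was not tested. Between the vectors in Tet3m/m cells, Cdh2 rose and Cdh1 overlapped. These ratios are a description and were not tested.

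**Figure D5:**
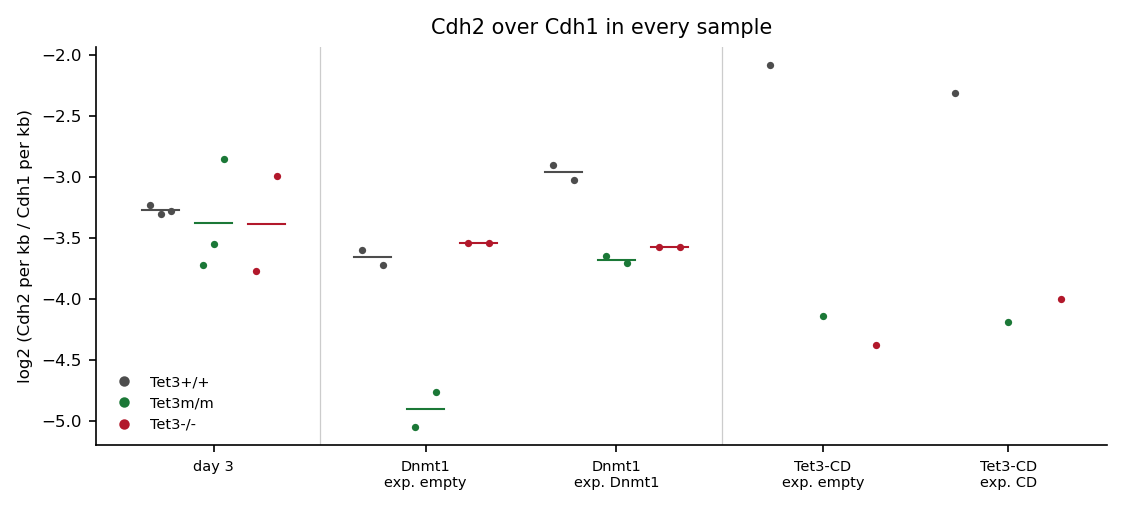
Log2 ratio of Cdh2 to Cdh1 per kilobase of gene model (y axis) in each of the 26 samples, by experiment and vector (x axis), with 1 point per sample, short lines for group means and grey, green and red for Tet3+/+, Tet3m/m and Tet3-/-. All samples lie below 0, and the lowest, at -5.05 and -4.76, are the empty vector Tet3m/m samples of the Dnmt1 experiment.

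The Tet3-CD experiment held 1 sample per group and so allowed no test. With it the authors asked whether the expression changes of the mutants came from loss of TET3. No inactive form of the domain was among the groups, so an effect of enzyme activity alone cannot be read from them. Tet3 counts were 4755, 1850 and 2070 in Tet3+/+, Tet3m/m and Tet3-/- cells that carried the empty vector, and 5441, 5232 and 2759 in those given Tet3-CD. In Tet3-/- cells 4 of 10 genes were higher by more than 1.5-fold with Tet3-CD and 0 lower, against 9.89% and 11.6% of 17481 genes, 21.5% in all. In Tet3+/+ cells 0 of 10 were past 1.5-fold, against 13.4% of all genes (6.11% higher and 7.3% lower), and in Tet3m/m cells also 0, against 10.1% (4.58% higher and 5.53% lower). Vim in Tet3-/- cells was at 10699 without and 28385 with the catalytic domain, a log2 ratio of 1.41. Zeb2 was at 640.5 and 1162 (0.86), Fn1 at 29567 and 48252 (0.71) and Cdh2 at 2563 and 3857 (0.59, under 1.5-fold after TMM rescaling). The empty vector Tet3-/- sample was low for all 4 genes compared with the Tet3m/m empty vector sample, which had 38824 for Vim, 1153 for Zeb2, 67312 for Fn1 and 3626 for Cdh2. Compared with the Tet3+/+ empty vector sample it was low for Vim (21019), Zeb2 (1076) and Cdh2 (4062). For Fn1 it was close to that sample (28498). Alongside, the neuroectoderm marker sum in Tet3-/- cells was 9436 without and 15081 with the catalytic domain, the fibroblast or feeder sum 27619 and 32151 and the parietal endoderm sum 348839 and 228119. Single genes weighed heavily in the neuroectoderm and fibroblast sums. Nes went from 5042 to 12359, Sox1 from 278.6 to 162.5 and Pax6 from 431 to 472.5. Col1a1 went from 11601 to 16298, Col1a2 from 2854 to 1416 and Dcn from 156.4 to 215.4. The part of these markers in the ratios of the 4 genes was not tested.

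Genotype differences among the empty vector samples of this experiment differed from those of the Dnmt1 experiment in direction for several genes. Against Tet3+/+, 3 of 10 genes were past 1.5-fold higher and 3 lower in Tet3m/m cells (20.2% and 16.1% of all genes, 36.3% in all), and 2 higher and 4 lower in Tet3-/- cells (15.4% and 11.7%, 27.1% in all). Against Tet3m/m, 2 were higher and 3 lower in Tet3-/- cells (17% and 17.8%, 34.8% in all). Cdh1 was at 9746 in Tet3+/+, 36103 in Tet3m/m and 30212 in Tet3-/- cells, log2 ratios to Tet3+/+ of 1.89 and 1.63. Vim was at 21019, 38824 and 10699, log2 ratios of 0.89 and -0.97. Twist1, at 2507, 932.9 and 1714, and Snai2, at 414.5, 227.2 and 316.7, were lower in Tet3m/m cells (log2 ratios -1.43 and -0.86), the same side as in the Dnmt1 experiment. Fn1 was at 28498, 67312 and 29567, and Tet3m/m cells stood above Tet3+/+ for it in all 3 experiments. The empty vector Tet3+/+ sample stood apart in its markers, with a parietal endoderm sum of 1207062 against 270732 in Tet3m/m and 348839 in Tet3-/- samples. The sources differ on when these cells were collected, so the stage may not be that of the Dnmt1 experiment. With 1 sample per group, a genotype and its sample cannot be told apart.

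Genes whose pattern was most like each member were ranked by the lower of 2 Pearson correlations, over the 8 day 3 samples and the 12 samples of the Dnmt1 experiment, among 17244 genes in both. The samples share genotypes and vectors, so these values describe the tables and carry no p. For Cdh1 they were Rbms1 (0.96 and 0.96), Vps26c and Arfgap2. For Cdh2 they were Crispld2 (0.94 and 0.94), Arhgef40 and Svep1, and for Epcam Grb7 (0.90 and 0.88), Gpank1 and Nipsnap1. Vim was most like Syt11 (0.99 and 0.97), Thbs1 and Acta1, and Fn1 most like Lrrc8c (0.95 and 0.97), Pid1 and Cacna2d1. Among the factors, Snai1 was much like Mobp (0.95 and 0.96) and Ccdc191, Snai2 most like Vps9d1 (0.90 and 0.91), Twist1 like Telo2 (0.94 and 0.95), Zeb1 like Hacd1 (0.89 and 0.90) and Zeb2 like Tlr5 (0.96 and 0.94). Among the members themselves, Cdh2 and Zeb2 had correlations of 0.85 on day 3 and 0.97 in the Dnmt1 experiment, and Cdh1 and Vim 0.83 and 0.94, also as descriptions.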

How the data were processed

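RNA sequencing of 26 samples was used here, and the other assays of the series were not analysed here. Per the labels and methods, the authors trimmed reads with Trim Galore 0.6.7, aligned them with STAR 2.7.9a to mm39, summed reads per gene in featureCounts and scaled them in DESeq2. The deposited values, of the unit signal, are read counts divided by size factors. Whole reads were recovered from the steps of each column (100% of values whole within 0.01) and gave the depth. Genes with a mean of at least 10 were kept, and log2(value + 1) was fitted with limma 3.58.1 (trend, R 4.3.3), all groups of an experiment together, with Benjamini-Hochberg adjustment over all genes. edgeR 4.0.16 and DESeq2 1.42.0 on the recovered reads, other pseudocounts and filters, TMM, centring by chromosome, a replicate block and samples left out in turn were alternatives. The Tet3-CD experiment gave log2 ratios only. Scripts were tested on simulated data. Replicates differed beyond sampling noise in every group of the day 3 and Dnmt1 experiments. The chi-square of reads between 2 samples of a group, per degree of freedom, was 13.8 to 87.2 on day 3. In the Dnmt1 experiment it was 3.96 to 11.1.

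The members and gene lists were chosen with earlier results of these data known. All members are named with values. Of the related genes, those named were among the 2 of a list with the largest rise or fall called in a comparison, and for likeness the 3 most correlated genes, of which some are not reported here. Replicate numbers did not pair the samples: the correlations of same-numbered deviations were -0.0977 to 0.082 on day 3 and -0.053 to 0.0293 in the Dnmt1 experiment. Sequences came from RefSeq GRCm38.p6, and no coordinate was carried to the authors' build. The lowest gene means in the deposited tables were 9.46, 9.35 and 3.87, and whether a filter was applied before deposit is not given in the sources used here.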

Additional observations from a re-analysis of the deposited data

Results flagged for a closer look

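For 5 values, the response to the Dnmt1 vector, which did not raise Dnmt1 equally in each genotype, differed between genotypes by the test of the interaction. Limma's adjusted p is given beside each value in the report. These were Cdh2 in Tet3m/m against Tet3+/+ cells (0.74) and in Tet3-/- against Tet3m/m cells (-1.11), Twist1 in Tet3-/- against Tet3+/+ (-1.11) and against Tet3m/m cells (-1.45), and Snai2 in Tet3-/- against Tet3m/m cells (-1.10), all as differences of log2 fold changes.

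In 7 further values the samples of 1 experiment lay all on one side and those of another all on the opposite side, a difference that was not tested. Twist1 in Tet3-/- against Tet3+/+ cells was at 0.10 with the empty vector of the Dnmt1 experiment and at -0.45 on day 3. Fn1 in Tet3-/- against Tet3m/m cells was at -0.20 with that vector and at 0.57 on day 3. The others, taken only where the difference in the Dnmt1 experiment was called and the Tet3-CD ratio was past 1.5-fold, set single empty vector samples of the Tet3-CD experiment against the empty vector of the Dnmt1 experiment. Cdh1 in Tet3m/m against Tet3+/+ cells was at 1.89 against -0.73, and Vim in the same comparison at 0.89 against -1.13. Vim in Tet3-/- cells was at -0.97 against 0.99 relative to Tet3+/+ and at -1.86 against 2.12 relative to Tet3m/m cells. Zeb2 in Tet3-/- against Tet3m/m cells was at -0.85 against 1.82.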

How the results depend on the processing

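Of 2470 alternative values for the 120 tested member differences, 2416 kept direction and side of the threshold, 17 lost the call, 15 gained it and 22 turned direction, none of them among the 31 called values. Day 3 Cdh1 in Tet3m/m against Tet3+/+ turned to 0.33 when centred by chromosome, 0.029 with edgeR and 0.023 with DESeq2. With samples left out in turn, that value ranged from -0.21 to 0.22, Vim in the same comparison from -0.12 to 0.43, day 3 Snai2 in Tet3-/- against Tet3+/+ from -0.20 to 0.069 and Twist1 in Tet3-/- against Tet3m/m from -0.18 to 0.19. With Dnmt1, Snai2 in Tet3+/+ ranged from -0.014 to 0.42, Cdh1 in Tet3m/m from -0.031 to 0.067 and Snai1 in Tet3-/- from -0.072 to 0.048. The interaction of Tet3m/m against Tet3+/+ ranged from -0.086 to 0.0041 for Vim and from -0.16 to 0.099 for Zeb1 (-0.072 to 0.013 apart from the empty vector Tet3+/+ samples), and for Vim from -0.13 to 0.20 in Tet3-/- against Tet3+/+ and from -0.084 to 0.24 against Tet3m/m. The cause was not tested for any of these.

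Without the fold threshold the members called numbered 2 for day 3 Tet3-/- against Tet3m/m (2194 of 17915 genes) and 8 for empty vector Tet3-/- against Tet3+/+ (9612 of 18055). They numbered 6, 8 and 6 for Dnmt1 in Tet3+/+, Tet3m/m and Tet3-/- (1010, 1842 and 2423 genes) and 3, 4 and 5 for the interactions (236, 1753 and 2572 genes). Day 3 Tet3-/- against Tet3m/m gave 2 with DESeq2 and 0 with only those groups fitted, and Dnmt1 in Tet3-/- gave 2 with edgeR. Leaving out samples gave 0 to 1 for each day 3 comparison with Tet3+/+, 0 to 4 for the mutants against each other (4 without Tet3m/m replicate 1), 3 to 5 for empty vector Tet3-/- against Tet3+/+ and 1 to 2 for Dnmt1 in Tet3-/-. A day 3 Tet3-/- sample left alone was assumed to vary like the other groups. Over all genes, the 115 calls of day 3 Tet3-/- against Tet3+/+ became 917 with DESeq2, 664 with only those groups, 223 and 64 with pseudocounts of 5 and 0.1, 67 with TMM and 58 at a mean of at least 50, and the 212 calls of Dnmt1 in Tet3+/+ became 366 with only those groups.

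With the replicate block, possible for 7 comparisons, 70 of 70 member values kept their call, and 1 member was called in each day 3 comparison as without it. The numbers did not pair the samples. Empty vector Tet3+/+ samples carry no numbers, so no block could be fitted with them.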
